A study of Oryza sativa with 4 samples.

Results

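A set of 96 transcripts from 96 loci was abundant in senescing rice coleoptiles and was also present, at a lower level, before senescence began. The loci were chosen from the deposited expression values: an ID of an MSU rice locus, FPKM of 100 or more at day 2, FPKM above 0 in control, and a log2 ratio of day 2 to control of at least 2 and under 5, which is 4-fold up to 32-fold higher. FPKM is a count of sequenced fragments divided by transcript length and by the mapped fragments of a library, so levels can be set side by side between genes of different length. They were taken from 3439 listed transcripts, of which 3241 carried an MSU locus ID, from 3141 loci. Because both FPKM values chose the members, their levels and ratios are a description and carry no test.

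The study asked which transcripts change as the coleoptile, the sheath around the first leaf of a grass seedling, senesces. The day 2 group (2 libraries, 9 days after germination) was of wild type PB1 rice (Pusa Basmati 1) whose seedlings had spent 2 days in air after submergence, and the control group (2 libraries, 7 days after germination) was of the same variety, harvested at the transfer from water to air. All libraries came from coleoptile tissue of seeds kept under water for 7 days, and the treatment label of all of them names submergence. Both libraries of a group are pooled in its FPKM value, so no spread between libraries can be given for any value below. Exposure to air, age and senescence differed together between the groups and cannot be told apart. In whole coleoptiles, a lower level from fewer cells of a type cannot be told apart from less RNA per cell.

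Senescence is an ordered breakdown of an organ in which its nitrogen, carbon and metals are moved to growing parts. Cells in it keep antioxidant systems active, break down proteins and bind released metals, while genes for photosynthesis usually decline in leaves. Return from water to air also exposes tissue to oxygen, and the ascorbate and glutathione cycle, which removes hydrogen peroxide, is a known part of the plant response to that return. The coleoptile of a submerged seedling is largely non-green, and it is attached to a grain that holds the seed reserves.

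For 3 members the study predicted a miRNA target site, and their mature sequences are shown because they are the regulatory sequences at hand that the study ties to these loci. Capitals mark the seed, bases 2 to 8 from the 5′ end, with T in place of U as the study's table writes them. The 3 seeds differ from each other.
osa-miR1428e-3p: tAAGATAAtgccatgaatttg
osa-miR160e-5p: tGCCTGGCtccctgtatgccg
osa-miR396a-5p: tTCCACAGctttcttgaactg
The target of osa-miR1428e-3p was LOC_Os05g02310, a soluble inorganic pyrophosphatase that hydrolyses the pyrophosphate left by biosynthesis, at FPKM 159.8 at day 2 and 10.8 in control. The target of osa-miR160e-5p was LOC_Os01g11730, a GDSL-type lipase, at 188.1 at day 2 and 46.9 in control. The target of osa-miR396a-5p was LOC_Os08g37370, a mitochondrial carrier protein, at 187.0 at day 2 and 46.4 in control. In plants miR160 is best known for targeting auxin response factors and miR396 for growth-regulating factors, and no described member belongs to either of those families. Predicted targets made up 3 of the 96 members (3.13%), against 263 of the 3141 listed loci (8.37%). The levels of the miRNAs themselves were not analysed here. The study lists all 3 miRNAs among those strongly higher in senescing coleoptiles, the same direction as these predicted targets. Its regulatory network kept only pairs in which miRNA and target changed in opposite directions.

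The members had a median FPKM of 200.04 at day 2 (quartiles 134.3 and 336.0, range 100.4 to 1817) and of 22.2 in control (quartiles 13.3 and 46.1, range 4.07 to 283.0). Their median log2 ratio was 3.02, with quartiles of 2.46 and 4.06. Together they summed to FPKM 27452 at day 2, 18.98% of the sum of all listed transcripts, and to 3416 in control, 1.27% of the listed sum, a ratio of sums of 8.04. The listed sums, 144639 at day 2 and 269393 in control, cover transcripts selected for change and are no measure of sequencing depth. Of the 3166 listed transcripts above 0 in both groups, 62.2% were at least 4-fold higher at day 2, and 53.4% were within the 4- to 32-fold range of the members, which the members enter by choice.

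The sum was spread over many genes. The 3 highest members held 16.7% of the members' day 2 sum, the 10 highest held 33.0%, and 22 of the 96 were needed for 50%. At day 2, 48 members lay between FPKM 100 and 200, 38 between 200 and 500, 7 between 500 and 1000, and 3 above 1000. In control, 13 were under FPKM 10, 50 between 10 and 30, 28 between 30 and 100, and 5 above 100. Of the 96, 48 members had a log2 ratio between 2 and 3, 22 between 3 and 4, and 26 between 4 and 5. By construction a low control level demands a large ratio, and the median log2 ratio was 4.56 for members under FPKM 10 in control and 2.39 for those between 30 and 100.

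**Figure D1:**
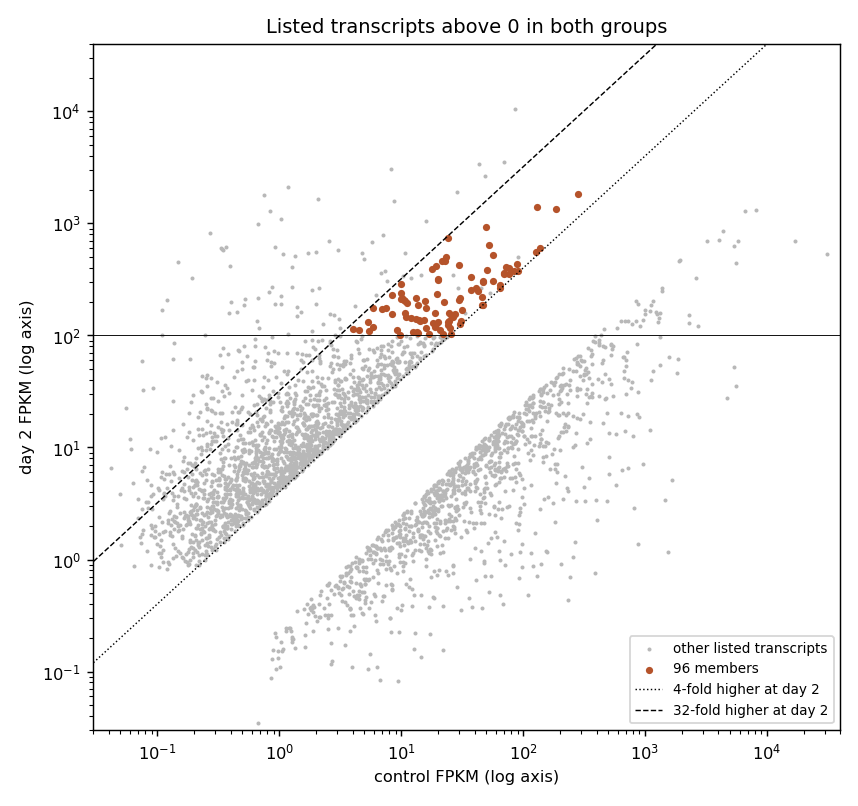
Day 2 FPKM against control FPKM, both on log axes, for the 3166 listed transcripts above 0 in both groups, 1 pooled value per group and transcript. The 96 members (coloured) lie above the line at FPKM 100 between the 4-fold and 32-fold lines, and the empty band around equal levels is where the tables hold no transcripts.

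LOC_Os02g30100, a cytochrome P450, entered at FPKM 100.4 at day 2, and LOC_Os12g10220 was just outside at 99.4. At the upper limit, the actin-depolymerizing factor LOC_Os03g60580 was inside at a log2 ratio of 4.94 and LOC_Os01g74300 was outside at 5.06. At the lower limit the smallest ratio inside was 2.01 (LOC_Os01g11730), and the tables hold no transcript above 0 in both groups that changed by less than 4-fold. A further 8 transcripts had the same levels and ratios but no MSU locus ID.

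Descriptions of the loci were taken from the study's annotation and covered 84 of the 96 members. Keyword lists sorted 54 members into 12 groups, which held 58.7% of the members' day 2 sum. Over all listed loci with a description, 70.1% were higher at day 2 or listed at 0 in control, and the median log2 ratio was 2.48. The listed transcripts include some at 0 in control but none at 0 at day 2, where the lowest FPKM was 0.035. Transcripts that the study found only in control are thus missing from every count of direction given here. Descriptions covered 86.3% of the listed loci that were higher but 72.5% of those that were lower, so counts of lower loci are incomplete.

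**Figure D2:**
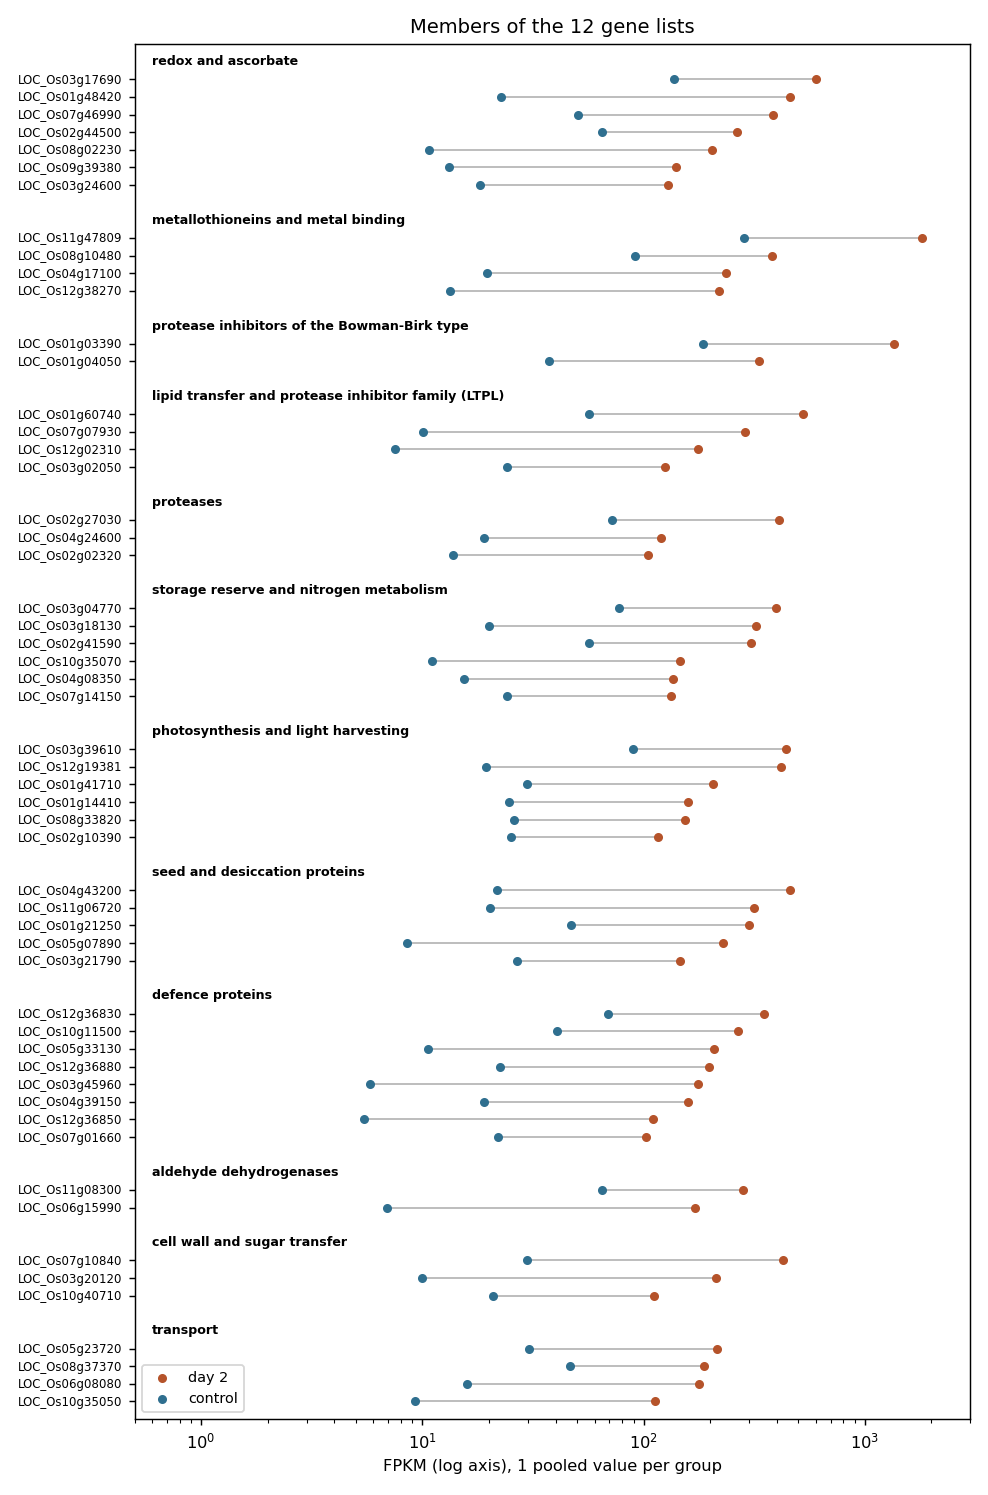
FPKM on a log axis at day 2 and in control for the 54 members in the 12 gene lists, 1 pooled value per group. The longest distances between the points include the thaumatin LOC_Os03g45960 and the lipid transfer family locus LOC_Os07g07930, and the shortest include the glutathione peroxidase LOC_Os02g44500.

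The ascorbate and glutathione system was represented by several of its successive enzymes. Of 24 listed redox loci, 20 were higher at day 2, 1 was at 0 in control and 3 were lower, with a list median log2 ratio of 2.82, and 7 were members. OsAPx1 (LOC_Os03g17690, chromosome 3, 9843335 to 9846670), a cytosolic ascorbate peroxidase that reduces hydrogen peroxide with ascorbate, was at FPKM 598.7 at day 2 and 136.7 in control, a log2 ratio of 2.13. LOC_Os09g39380, monodehydroascorbate reductase, which regenerates ascorbate from its radical, was at 139.7 at day 2 and 13.3 in control. LOC_Os08g02230, with the domains of an arabino-lactone oxidase, was at 202.7 at day 2 and 10.7 in control, a log2 ratio of 4.24. Oxidation of a sugar lactone is the last step of ascorbate synthesis in plants, and whether LOC_Os08g02230 carries out that step was not tested.

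Outside the keyword list, LOC_Os05g02530 (chromosome 5, 877098 to 880445) is described by its glutathione S-transferase domain, and the study files it under ascorbate and glutathione with Arabidopsis DHAR2, a dehydroascorbate reductase, as its match. It was the highest of the ascorbate-related members, at 640.9 at day 2 and 52.4 in control, a log2 ratio of 3.61. The enzymes that use and the enzymes that recover ascorbate were thus both among the members. Their log2 ratios were 2.13 for OsAPx1, 3.40 for LOC_Os09g39380 and 3.61 for LOC_Os05g02530.

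Other peroxide and superoxide enzymes stood beside them. The peroxiredoxin LOC_Os01g48420, which RefSeq lists as PRXIIC and which reduces peroxides with a reactive cysteine, was at 460.6 at day 2 and 22.7 in control (log2 ratio 4.34). The copper/zinc superoxide dismutase LOC_Os07g46990 was at 383.5 at day 2 and 50.5 in control (2.93). The glutathione peroxidase LOC_Os02g44500 had the smallest ratio of the redox members, at 265.3 at day 2 and 64.8 in control (2.03). LOC_Os03g24600, MSRB5, which repairs oxidised methionine in proteins, was at 129.0 at day 2 and 18.2 in control (2.82). All 5 listed peroxiredoxins and all 4 listed ascorbate peroxidases were higher at day 2, whereas the 3 listed glutaredoxins were lower and none was a member. The highest redox loci outside the members were the catalase LOC_Os02g02400, at 546.1 at day 2 and 4.82 in control, and the peroxiredoxin LOC_Os07g44430, at 533.8 at day 2 and 1.07 in control, both past the 32-fold limit.

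Metallothioneins, small cysteine-rich proteins that bind copper and zinc, gave the highest member. LOC_Os11g47809 (chromosome 11, 28827745 to 28828439), which RefSeq lists as MT1A, reached FPKM 1817 at day 2, against 283.0 in control, the highest value of any member in both groups. It alone made up 6.62% of the members' day 2 sum and 1.26% of the listed sum. LOC_Os12g38270, a metallothionein with the synonym MT4A, was at 218.1 at day 2 and 13.3 in control (log2 ratio 4.04). All 6 listed metallothioneins were higher at day 2, and the largest ratio among them lay outside the members, LOC_Os03g17870 at 1173 at day 2 and 14.5 in control. Metallothionein genes are near-identical copies in places, and reads shared between them could have been divided among them.

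Loci with a heavy metal-associated domain, found in proteins that carry metals within the cell, did not move in 1 direction. Of 13 listed, 6 were higher, 2 were at 0 in control and 5 were lower. The members among them were LOC_Os08g10480, at 378.7 at day 2 and 91.3 in control, and LOC_Os04g17100, at 236.4 at day 2 and 19.6 in control. Among the lower ones, LOC_Os04g39350 was at 4.96 at day 2 and 87.7 in control.

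Inhibitors of proteases were among the most abundant members. BBTI7 (LOC_Os01g03390, chromosome 1, 1365585 to 1366502), a Bowman-Birk inhibitor of trypsin-type serine proteases, was at FPKM 1357 at day 2 and 186.2 in control, a log2 ratio of 2.87. BBTI12 (LOC_Os01g04050) was at 331.2 at day 2 and 37.3 in control (3.15). The third listed Bowman-Birk locus, BBTI8, was low in both groups, at 7.01 at day 2 and 0.192 in control, and the members held 99.6% of the family's listed day 2 sum.

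The LTPL family, which joins lipid transfer proteins with seed storage and protease inhibitor relatives, was split. Of 34 listed loci, 13 were higher at day 2, 9 were at 0 in control and 12 were lower. The 4 members were LTPL16 (LOC_Os01g60740), at 525.9 at day 2 and 56.4 in control, LTPL78 (LOC_Os07g07930), at 286.9 at day 2 and 10.02 in control, LTPL11 (LOC_Os12g02310), at 176.9 at day 2 and 7.52 in control, and LTPL151 (LOC_Os03g02050), at 125.3 at day 2 and 24.0 in control. Their log2 ratios were 3.22, 4.84, 4.56 and 2.38 in that order. The listed family as a whole summed to 3149 at day 2 and 42692 in control. LTPL140 (LOC_Os10g40440), at 532.8 at day 2 and 30833 in control, held the largest part of the control sum, and without it the family summed to 2616 at day 2 and 11858 in control. The 7 listed LTPL loci above FPKM 1000 in control were all lower at day 2. The 4 members were therefore higher in a family whose summed level was lower at day 2.

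Proteases themselves supplied 3 members. The cysteine proteinases LOC_Os02g27030 and LOC_Os04g24600 are papain-type enzymes that degrade bulk protein. LOC_Os02g27030 was at 409.0 at day 2 and 72.2 in control, and LOC_Os04g24600 at 119.3 at day 2 and 19.0 in control, with log2 ratios of 2.50 and 2.65. OsSCP6 (LOC_Os02g02320), a serine carboxypeptidase that trims amino acids from the carboxyl end, had 2 listed transcripts over the same interval, the member at 104.8 at day 2 and 13.7 in control, and another at 80.2 at day 2 and 11.1 in control. All 5 listed cysteine proteinases were higher at day 2. Over the keyword list for proteases, 22 of 32 loci were higher, 2 were at 0 in control and 8 were lower. The keywords also drew in 2 inhibitors of cysteine proteinases, both lower: LOC_Os03g31510, at 187.3 at day 2 and 1120 in control, and LOC_Os01g68670, at 2.23 at day 2 and 23.1 in control. Without them 22 of 30 loci were higher, 2 were at 0 in control and 6 were lower.

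Enzymes of reserve and nitrogen metabolism gave 6 members out of 18 listed loci, of which 14 were higher, 2 at 0 in control and 2 lower, with a list median log2 ratio of 2.996. The beta-amylase LOC_Os03g04770, which releases maltose from starch, was at FPKM 397.8 at day 2 and 77.2 in control. The asparagine synthetase LOC_Os03g18130, which makes the amino acid in which plants carry much of their remobilised nitrogen, was at 321.3 at day 2 and 19.9 in control, the largest ratio of the group at 4.01. The pfkB-family kinase LOC_Os02g41590, of a family that phosphorylates sugars and nucleosides, was at 304.3 at day 2 and 56.5 in control. LOC_Os04g08350, a plastid-type cysteine synthase for the last step of cysteine synthesis, was at 136.4 at day 2 and 15.5 in control. LOC_Os07g14150, a cytidine deaminase of pyrimidine salvage, was at 132.8 at day 2 and 24.1 in control. These 5 loci and the alpha-galactosidase described below held 86.1% of the list's day 2 sum. The lower loci were a beta-galactosidase, LOC_Os01g65460, at 18.3 at day 2 and 157.4 in control, and an alpha amylase, LOC_Os05g32710, at 7.45 at day 2 and 52.6 in control.

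Genes of light harvesting and carbon fixation were among the members. All 11 loci found by the photosynthesis keywords were higher at day 2, with a median log2 ratio of 2.80. A lower Rubisco locus, LOC_Os12g17600, was not found by the keywords and is given below. Of the 11, 6 were members. Of these, 4 were chlorophyll A-B binding proteins, which hold the pigments of the light-harvesting antennae. LOC_Os03g39610 was the highest, at FPKM 438.3 at day 2 and 89.3 in control, followed by LOC_Os01g41710, at 206.0 at day 2 and 29.6 in control. LOC_Os08g33820 was at 153.0 at day 2 and 25.9 in control, and LOC_Os02g10390 at 116.6 at day 2 and 25.2 in control. The log2 ratios of the 4 antenna loci lay close together, between 2.21 and 2.80. LOC_Os01g14410, an early light-induced protein that binds chlorophyll under light stress, was at 158.3 at day 2 and 24.5 in control.

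RBCS1 (LOC_Os12g19381), a small subunit of Rubisco, the enzyme that fixes carbon dioxide, had the largest ratio of this group. Its member transcript was at FPKM 417.5 at day 2 and 19.4 in control, a log2 ratio of 4.43, and another transcript under the same locus ID but at a separate place on chromosome 12 (11277246 to 11278306) was at 90.4 at day 2 and 1.87 in control. LOC_Os12g19470, a further small-subunit locus nearby, was at 53.8 at day 2 and 6.35 in control. A different Rubisco locus, LOC_Os12g17600, was lower, at 9.82 at day 2 and 43.1 in control, and was outside the photosynthesis list. The study itself reported a decline of Rubisco small chain transcript in senescing coleoptiles, by RNA sequencing and by qPCR. LOC_Os12g17600 changed in the direction of that decline, and RBCS1 and LOC_Os12g19470 in the opposite direction. The study also reported several genes of a photosynthesis category as higher in senescing coleoptiles but lower in senescing leaves. The small-subunit copies on chromosome 12 are closely alike in sequence, and how reads were divided among them is uncertain. As markers of green tissue, the 8 antenna and small-subunit loci with a description summed to 1554 at day 2 and 209.1 in control, with all 8 higher and none at 0 in control. The part of leaf tissue in this result was not tested.

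The keyword list for seed and desiccation proteins, which also takes in cupins, gave 5 members, although most of the level of that list lay elsewhere. All 34 listed loci were higher at day 2 (27) or at 0 in control (7), with a median log2 ratio of 5.14. The members held 6.12% of the list's day 2 sum of 23657, and the list's control sum was 295.4. Of that day 2 sum, 13193 came from 13 loci described as cupins, so the list is not made up of seed and desiccation proteins alone. The caleosin LOC_Os04g43200, which RefSeq lists as the peroxygenase PXG and which sits on lipid droplets, was at FPKM 460.3 at day 2 and 21.7 in control (log2 ratio 4.41). LOC_Os11g06720, an abscisic stress-ripening protein, of a family of small hydrophilic proteins induced by drying and abscisic acid, was at 315.8 at day 2 and 20.2 in control (3.97). LOC_Os01g21250, a late embryogenesis abundant protein, of a family that accumulates in drying seeds, was at 298.4 at day 2 and 46.8 in control (2.67). LOC_Os05g07890, embryo-specific 3, was at 227.7 at day 2 and 8.49 in control (4.74), and the cupin LOC_Os03g21790 was at 145.6 at day 2 and 26.7 in control (2.44).

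The highest loci of this list lay outside the members. The cupin LOC_Os08g08970 was at 10585 at day 2 and 86.3 in control, and the dehydrin LOC_Os11g26790 at 3422 at day 2 and 43.2 in control, both past 32-fold. As markers of seed tissue, 27 listed loci (19 higher, 7 at 0 in control, 1 lower, 3 of them members) summed to 15332 at day 2, 10.6% of the listed sum, and to 292.4 in control. Of these, 13 were cupins, a domain family that is not limited to seeds, and they made up 86.1% of the day 2 sum. The other 14 markers, a division chosen after the values were seen, summed to 2139 at day 2, 1.48% of the listed sum, and to 154.3 in control. Of the defining markers, the 4 listed oleosins summed to 211.4 at day 2 and 3.49 in control, with 2 of the 4 at 0 in control, while the 1 listed seed storage protein locus was at 9.03 at day 2 and 73.3 in control. The part of seed tissue in these values was not tested.

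Defence proteins formed the largest group by count, with 8 members. Of 35 listed loci, 22 were higher, 7 were at 0 in control and 6 were lower, and the list median log2 ratio was 3.11. One of the lower loci, LOC_Os02g45760, is a chitin-inducible gibberellin-responsive protein that entered through its name, and without it 5 of 34 loci were lower. The thaumatin LOC_Os03g45960, of a family of antifungal proteins that includes osmotin, was at FPKM 176.5 at day 2 and 5.83 in control, the largest ratio of the group at 4.92. The chitinase CHIT17 (LOC_Os05g33130), which cleaves the chitin of fungal walls and which RefSeq also lists as Cht2, was at 207.5 at day 2 and 10.6 in control (4.29). LOC_Os10g11500, an SCP-like extracellular protein that the study matches to Arabidopsis PR1, was at 267.1 at day 2 and 40.7 in control (2.71). LOC_Os07g01660, a dirigent protein, of a family that guides the coupling of phenolic radicals, was at 102.2 at day 2 and 21.99 in control (2.22). LOC_Os04g39150, a Bet v I family protein, was at 158.4 at day 2 and 19.1 in control (3.05). It entered the list by its description, whereas the study files it under abiotic stress and matches it to Arabidopsis MLP423.

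The other 3 defence members were neighbours. Bet v I proteins of the PR10 type are small intracellular proteins induced by pathogens. On chromosome 12, LOC_Os12g36830, LOC_Os12g36850 and LOC_Os12g36880 (PBZ1 in RefSeq) lay within 22580879 to 22601182. LOC_Os12g36830 was the highest, at 350.4 at day 2 and 69.4 in control, then PBZ1 at 197.3 at day 2 and 22.5 in control, and LOC_Os12g36850 at 109.8 at day 2 and 5.44 in control. The order of the levels was the same in both groups, and the ratio was largest for the lowest of the 3, at log2 4.34, against 3.13 for PBZ1 and 2.34 for LOC_Os12g36830. LOC_Os12g36840 and LOC_Os12g36860, between them, were low at day 2, at 1.13 and 2.93, and at 0 in control. Reads shared between these copies could move level from one to another.

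Aldehyde dehydrogenases, which oxidise aldehydes to acids, had 3 listed loci, all higher, of which 2 were members. LOC_Os11g08300 was at FPKM 281.9 at day 2 and 64.9 in control, a log2 ratio of 2.12. LOC_Os06g15990 had 2 listed transcripts over the same interval, the member at 171.5 at day 2 and 6.91 in control and the other at 66.6 at day 2 and 2.12 in control, with log2 ratios of 4.63 and 4.97. The control levels of the 2 loci differed much more than their day 2 levels.

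Transport gave 4 members of 91 listed loci, 72 of them higher, 7 at 0 in control and 12 lower. Both mitochondrial carriers move metabolites across the inner membrane. LOC_Os05g23720, matched by the study to the Arabidopsis ADP/ATP carrier AAC3, was at 215.3 at day 2 and 30.3 in control, and LOC_Os08g37370, matched to the Arabidopsis dicarboxylate carrier DIC1, is the predicted miR396 target above. LOC_Os06g08080, a proton pump of the vacuole that is driven by pyrophosphate, was at 177.0 at day 2 and 15.99 in control (log2 ratio 3.47). Together with the soluble enzyme LOC_Os05g02310 (3.88), 2 of the 5 listed inorganic pyrophosphatases were members, and all 5 were higher at day 2. The aquaporin LOC_Os10g35050 is TIP3;1 in RefSeq, a water channel of the vacuole membrane typical of seeds, and was at 112.1 at day 2 and 9.30 in control (3.59).

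The cell wall list was divided between the directions. Of 39 listed loci, 14 were higher, 6 were at 0 in control and 19 were lower, and the median log2 ratio of those above 0 in both groups was -2.09, below the 2.48 of all described loci. The glycosyltransferases LOC_Os07g10840, at FPKM 425.0 at day 2 and 29.8 in control, and LOC_Os03g20120, at 211.6 at day 2 and 9.93 in control, transfer sugars from activated donors. EXPB2 (LOC_Os10g40710), an expansin that loosens walls during growth, was at 111.1 at day 2 and 20.8 in control (log2 ratio 2.42). Of 15 listed expansins, 5 were higher, 5 were at 0 in control and 5 were lower, and the lower ones include a close neighbour of EXPB2 described below.

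**Figure D3:**
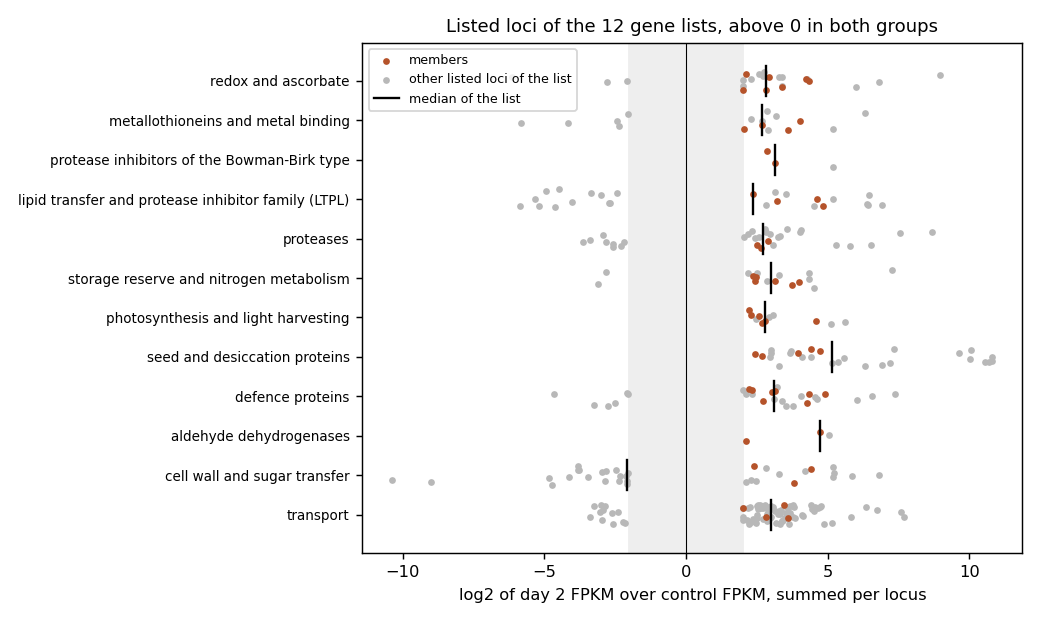
Log2 ratio of day 2 to control FPKM, summed per locus, for the listed loci of the 12 gene lists that were above 0 in both groups, with members coloured, other loci grey and the list median as a bar. The shaded band between -2 and 2 is empty because the tables hold no such loci, and the cell wall list, whose 6 loci at 0 in control are not drawn, is the only one of the 12 with a median below 0.

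The other 42 members fell in no list, and they held 41.3% of the members' day 2 sum. The highest was LOC_Os02g02890 (chromosome 2, 1116065 to 1116952), a peptidyl-prolyl cis-trans isomerase, which speeds the turning of proline bonds in protein folding. It was at FPKM 1399 at day 2 and 129.6 in control, a log2 ratio of 3.43, and all 3 listed isomerases were higher at day 2. LOC_Os03g60580 (chromosome 3, 34430456 to 34431364), an actin-depolymerizing factor that severs actin filaments, had the largest ratio of all 96, at 743.2 at day 2 and 24.1 in control (4.94). The other 2 listed factors of this kind were both at 0 in control. LOC_Os03g48080, with a CHCH domain, was high in both groups, at 552.9 at day 2 and 128.4 in control (2.11). LOC_Os05g13940, annotated as a retrotransposon protein, was at 503.9 at day 2 and 23.1 in control (4.45).

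Other members outside the lists have roles in stress, protein synthesis and metabolism. OsTIL-1 (LOC_Os02g39930), a temperature-induced lipocalin that in Arabidopsis protects membranes from lipid oxidation, was at 254.2 at day 2 and 37.1 in control. LOC_Os12g32240, translation initiation factor 5A, which helps ribosomes through difficult stretches, was at 249.5 at day 2 and 42.7 in control. LOC_Os11g05050, a TSJT1-type protein that the study files under auxin, was at 375.8 at day 2 and 84.6 in control, and LOC_Os12g29400, a GRAM domain protein filed under abscisic acid, was at 187.6 at day 2 and 13.7 in control. OsIF1-1 (LOC_Os08g44460), described only as an expressed protein but listed by RefSeq under a name used for the inhibitor of mitochondrial ATP synthase, was at 135.7 at day 2 and 24.6 in control. LOC_Os01g18744 is OsPMT in RefSeq, an acyltransferase that adds p-coumarate to lignin precursors in grasses, and was at 112.8 at day 2 and 4.53 in control (log2 ratio 4.64). LOC_Os11g30910, with a sulfotransferase domain, had the lowest control level of all members, 4.07, against 115.0 at day 2 (4.82).

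The 12 members without a description ranged from FPKM 107.7 to 932.7 at day 2 and from 5.90 to 77.0 in control, with a median log2 ratio of 3.26. The highest of them, LOC_Os03g21040 (chromosome 3, 11957335 to 11959565), was the fourth highest member, at 932.7 at day 2 and 49.4 in control (4.24). LOC_Os06g07220 was at 391.4 at day 2 and 17.9 in control (4.45), and LOC_Os02g48710 at 241.8 at day 2 and 10.05 in control (4.59). A further 8 members described only as expressed protein lay between 103.7 and 359.1 at day 2. LOC_Os02g30470, 1 of these 8, was at the low end of the ratios, at 103.7 at day 2 and 25.8 in control (2.01).

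**Figure D4:**
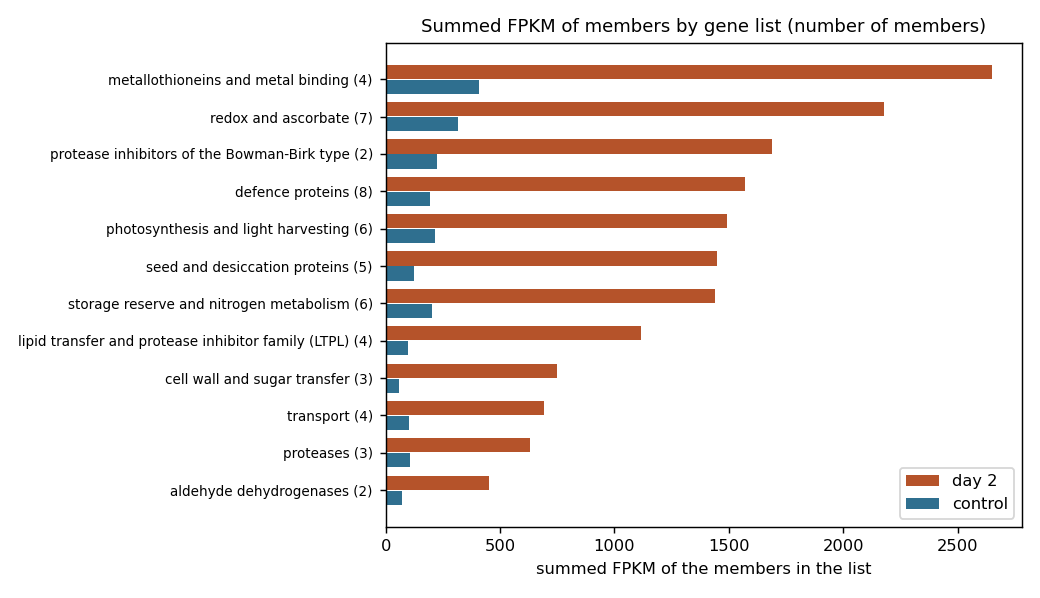
Summed FPKM of the members of each gene list at day 2 and in control, with the number of members in brackets. The 4 members of the metallothionein and metal binding list have the largest sum, 2650 at day 2 and 407.1 in control, followed by the 7 redox members with 2179 at day 2 and 316.8 in control.

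In the genome the members were scattered over all 12 chromosomes, from 2 on chromosome 9 to 15 on chromosome 3. Chromosome 12 had 10 members, 6.54% of its listed loci, against 3.06% over all listed loci. Another listed locus lay within 50 kb of 71 members (74.0%), against 68.5% of all listed loci, and the nearest one was higher or at 0 in control for 70.4% of these members, against 66.0% of all listed loci with a neighbour. Only 5 members lay within 50 kb of another member: the 3 PR10 loci above, and TIP3;1 with the alpha-galactosidase LOC_Os10g35070, 5244 bases apart. Alpha-galactosidases remove galactose from seed sugars of the raffinose family. LOC_Os10g35070 was at FPKM 146.6 at day 2 and 11.04 in control (log2 ratio 3.73), and a second copy further along, LOC_Os10g35110, was at 23.1 at day 2 and 4.08 in control.

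Neighbours of the same description were found for 13 members, 13 such neighbours being higher or at 0 in control and 2 lower. The 3 PR10 members count as neighbours of each other, and they are higher by the rule. Such pairs were not counted over all listed loci, and lower loci less often had a description. The counts are therefore no result about direction. The caleosin LOC_Os04g43200 lay 6960 bases from LOC_Os04g43170, which reached a similar level, 413.4 at day 2, but was at 0.399 in control, a log2 ratio of 10.02. LTPL11 was followed by LTPL13, at 18.9 at day 2 and 0.215 in control, and LTPL14, at 40.7 at day 2 and 3.50 in control. A lower neighbour was found for 2 members. EXPB2 had LOC_Os10g40730, at 136.0 at day 2 and 679.2 in control (-2.32). The GDSL lipase LOC_Os01g11730 had LOC_Os01g11710, at 17.1 at day 2 and 79.5 in control (-2.22). In both of these pairs the member had the lower control level. That the member had the higher log2 ratio follows from the rule and from picking lower neighbours.

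**Figure D5:**
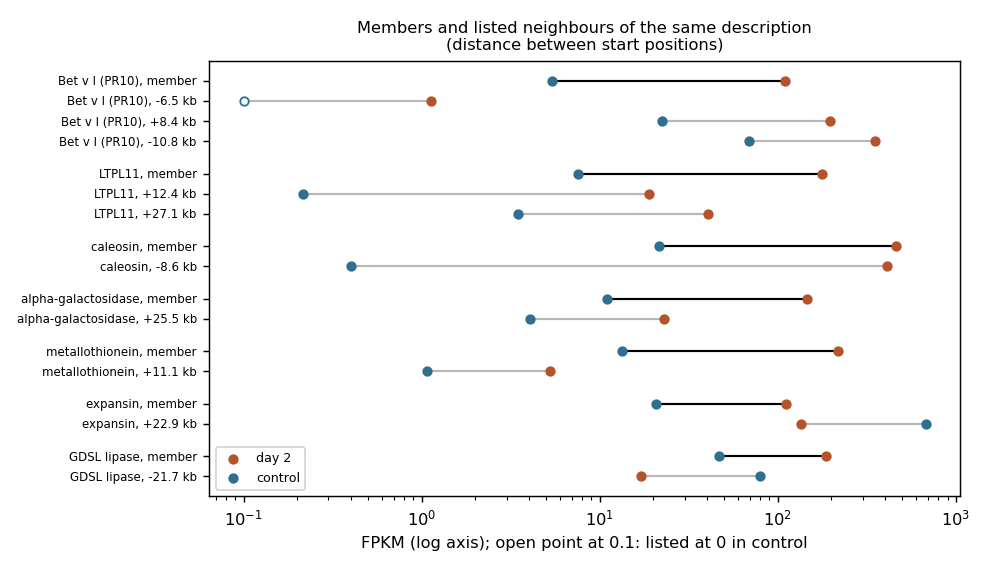
FPKM on a log axis at day 2 and in control for 7 members and their listed neighbours of the same description within 50 kb, with the distance between start positions at the left. In the expansin and GDSL lipase pairs the points of the neighbour are in reversed order, with the control value above the day 2 value.

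Set beside other abundant transcripts, the members occupied a middle place. Of the 219 listed transcripts at FPKM 100 or more at day 2, 179 were higher, 40 were lower, and 2 of the higher ones were at 0 in control. The 69 transcripts with the same minimum but 32-fold or more higher held 37.2% of the listed day 2 sum, against 18.98% for the 96 members. They began from a median control FPKM of 1.41, against 22.2 for the members, and their median genomic span was 1135 bases, against 1835 bases for the members. Among 1523 other transcripts that were 4- to 32-fold higher but under FPKM 100, 96.3% were under FPKM 10 in control, against 13 of the 96 members (13.5%), and the median span was 2750 bases. The difference in control level follows from the FPKM minimum against the 1523 transcripts and from the ratio limit against the 69. Span was not named in the rule, but FPKM is divided by transcript length, so the minimum is not independent of it. The median span was 2235 bases over all listed transcripts. It was 1761 bases for transcripts at FPKM 100 or more in control and 4- to 32-fold lower. The span is measured on the genome with introns, and FPKM values of short transcripts depend more on how fragment length is modelled.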

How the data were processed

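RNA from coleoptiles was sequenced as paired-end reads in 2 day 2 and 2 control libraries. The authors deposited FPKM, fragments per kilobase scaled to mapped fragments, as 1 value for each assembled transcript in each group. Per the study's methods and labels, reads were filtered with NGS QC Toolkit, mapped to the Nipponbare genome (IRGSP-1.0) by TopHat, assembled with Cufflinks and Cuffmerge and compared with Cuffdiff, whose scaling option is not given in the sources used here. The listed transcripts had been shortlisted for change by the authors, with a log2 ratio of at least 2 in size and a p-value. They include transcripts at 0 in control but none at 0 at day 2. The tables do not say how many fragments support an FPKM, and values per library were not used here, so no test, error or interval could be given. The test planned for values per library was therefore not run.

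The 2 tables were joined by transcript, and the log2 ratio was taken without a pseudocount (Python 3.11.15, pandas 2.3.3). The selection code was run on simulated data and returned the loci set by the same limits, which checks the code only. The members and the gene lists were chosen with earlier results of these data known. Gene lists were built from keywords in the study's locus descriptions, of which a shortened copy was used, so 82.7% of listed loci had a description. Entrez IDs from the same tables matched 71 members to RefSeq (ASM3414082v1), 19 with synonyms. List counts and ratios used FPKM summed per locus. Named loci were the 10 highest at day 2, the 5 largest and 5 smallest log2 ratios, members of gene lists with 2 or more members, members beside a listed locus of the same description, and paralogues or neighbours of these. Finer family counts and other named members were chosen after their values were seen. Chromosome numbers were read from the locus IDs, and coordinates are those of the authors' files. Alternatives were other FPKM minimums, a pseudocount of 1, sums per locus, scaling of day 2 by 1.5 either way, and other windows.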

Additional observations from a re-analysis of the deposited data

How the results depend on the processing

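The number of members depended on the FPKM minimum and on scaling. It was 96 as reported, 223 with a minimum of 50 and 48 with a minimum of 200, and 48 when day 2 values were divided by 1.5, of which 44 were among the 96. With day 2 values multiplied by 1.5 it was 138, sharing 83 with the 96. A pseudocount of 1 gave 97 (93 shared), sums per locus gave 100 (96 shared) and a control minimum of 1 gave 96 (96 shared). The share of the listed day 2 sum, 18.98%, was 19.96% of transcripts with a locus ID, 22.9% of those higher at day 2, 25.1% with a minimum of 50 and 14.4% with a minimum of 200. The median log2 ratio was 2.95 with a pseudocount of 1. Members with a listed locus nearby were 48.96% within 20 kb and 87.5% within 100 kb. With FPKM of 1 or more required in both groups, the count of higher loci moved by more than 1.5 times in 6 of 12 lists: 9 for LTPL, 14 for proteases, 15 for seed and desiccation, 17 for defence, 9 for cell wall and 30 for transport. A minimum of 5 in at least 1 group moved none of the 12 by that much. Leaving the cupins out of the seed markers, chosen after seeing the data, moved their share of the listed day 2 sum from 10.6% to 1.48%. No paired analysis was possible because the tables hold 1 pooled value per group, and for the same reason no library could be left out. The motif search in promoters was not run because no promoter sequences were used here.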
